A study of Mus musculus with 6 samples.

Results

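Connexins and pannexins form the large membrane channels of vertebrate cells, and 10 of their genes were followed here through the rd10 mouse retina: the connexins Gja1, Gjc1, Gjd2, Gja10, Gja4, Gja5, Gjb2 and Gjb6 and the pannexins Panx1 and Panx2. The genes were chosen by symbol, with earlier results of these data known. They are 10 of the 32285 genes counted and 10 of 23 connexin and pannexin genes in the files. All 6 libraries held nuclei from frozen retinas of B6.CXB1-Pde6b-rd10/J mice, in which a mutation of the rod phosphodiesterase gene makes rods and then cones degenerate. Each retina was injected into the vitreous at postnatal day 18 and was collected at postnatal day 20. Of the libraries, 3 followed saline (replicates 1, 2 and 6) and 3 followed 20 ng of recombinant IL-27, a cytokine of the IL-12 family (replicates 4, 5 and 10). There was no uninjected retina and no wild-type retina among them, so every group carried both the mutation and an injection. The labels do not say whether each library came from a separate mouse or from pooled retinas, so p-values measure the spread between these libraries.

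Gap junctions join neighbouring cells through paired connexin hexamers, which let ions and small molecules pass. In the retina, electrical coupling carries rod signals into cone circuits by way of AII amacrine cells, spreads signals laterally among horizontal cells, and connects pericytes and endothelial cells along vessels. Pannexins are related in shape and mostly form single-membrane channels that release ATP. Levels are given as CPM, the UMIs of a gene scaled to the total UMIs of the same nuclei, and they are compared only within a gene. Nuclear RNA was counted, so the values speak of transcripts in nuclei, not of channels.

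In replicate order, filtering left 9163, 8249 and 8728 nuclei of the saline group, at a median of 3788, 3598 and 3727 UMIs per nucleus. The IL-27 group kept 8747, 8559 and 8787 nuclei, at 3058, 3607 and 2782 UMIs. Values of single libraries are given in this order throughout, saline before IL-27. Between 15 and 27 barcodes were shared by any 2 libraries. The nuclei fell into 19 types named from marker genes, with all 23 connexin and pannexin genes left out of the clustering, so that no type was defined by them. The ciliary-epithelium-like type was higher in 81.8% of a ciliary epithelium list and in 66.7% of a Muller list, and the study counted these nuclei as a Muller population. It held 230, 222 and 107 nuclei after saline and 12, 6 and 103 after IL-27.

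The connexins differed in the type where they were highest. Gja10 was found almost only in horizontal nuclei, Gjd2 was highest in AII-like amacrine nuclei, Gjc1 in pericytes and smooth muscle, and Gja1 in the ciliary-epithelium-like nuclei and astrocytes. None of the 6 genes with enough counts for a test between IL-27 and saline passed it in any type, and Gja4, Gja5, Gjb2 and Gjb6 had too few counts in every single type. In UMIs over all retained nuclei, Gjd2 had 5713, Gjc1 3627, Gja1 1914, Panx1 1587 and Panx2 1502, while Gja10 had 181, Gja5 153, Gja4 78, and Gjb2 and Gjb6 10 each. Counts of that size set how firmly each gene can be described.

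**Figure D1:**
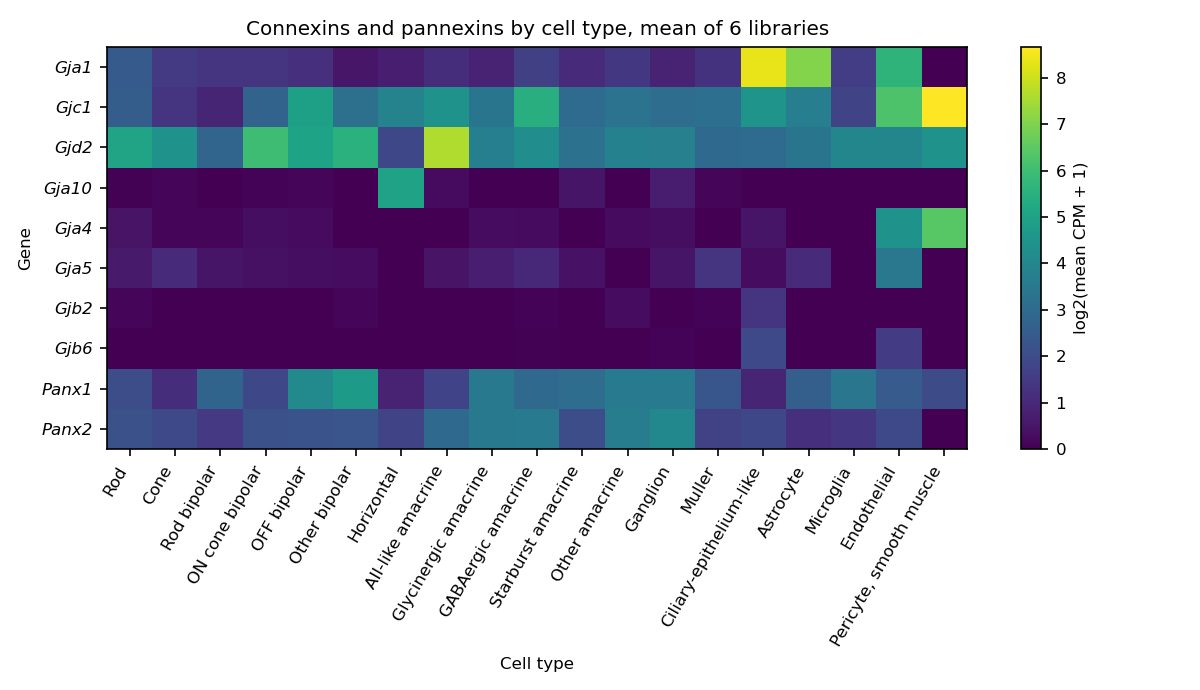
Mean level of the 10 genes (rows) in 19 cell types (columns), as log2 of the mean CPM of 6 libraries plus 1. Bright cells mark Gja10 in horizontal nuclei, Gjd2 in AII-like amacrine nuclei, Gjc1 and Gja4 in pericytes and smooth muscle, and Gja1 in ciliary-epithelium-like nuclei and astrocytes.

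Windows at the RefSeq starts of Gja1, Gjd2 and Gja10 are shown, the genes with the largest differences between the pairs of types compared here. They run from 250 bases before to 50 bases after that start on GRCm38.p6, and were available for 8 of the 10 genes (not Gjc1 and Panx2). The Gja10 window lies wholly inside the gene as annotated (chr4:32596960-32602760, minus strand), and its last 50 bases begin with ATG. It therefore does not cover the annotated start of that gene. Capitals mark matches on either strand to an E-box (CANNTG), a TATA box (TATAAA), a GC box (GGGCGG) or an AP-1 site (TGANTCA).
Gja1, chr10:56377050-56377349, plus strand: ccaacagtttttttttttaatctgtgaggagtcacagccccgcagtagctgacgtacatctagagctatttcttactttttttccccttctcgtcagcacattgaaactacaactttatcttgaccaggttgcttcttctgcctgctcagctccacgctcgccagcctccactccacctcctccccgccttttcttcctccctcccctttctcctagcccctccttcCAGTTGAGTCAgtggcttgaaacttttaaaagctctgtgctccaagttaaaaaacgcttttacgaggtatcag
Gjd2, chr2:114013570-114013869, minus strand: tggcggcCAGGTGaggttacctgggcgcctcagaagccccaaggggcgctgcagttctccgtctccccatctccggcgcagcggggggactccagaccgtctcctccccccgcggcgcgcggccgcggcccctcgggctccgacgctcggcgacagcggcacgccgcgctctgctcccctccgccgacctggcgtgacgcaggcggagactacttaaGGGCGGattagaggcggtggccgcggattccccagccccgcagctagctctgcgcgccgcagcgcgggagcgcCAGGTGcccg
Gja10, chr4:32602333-32602632, minus strand: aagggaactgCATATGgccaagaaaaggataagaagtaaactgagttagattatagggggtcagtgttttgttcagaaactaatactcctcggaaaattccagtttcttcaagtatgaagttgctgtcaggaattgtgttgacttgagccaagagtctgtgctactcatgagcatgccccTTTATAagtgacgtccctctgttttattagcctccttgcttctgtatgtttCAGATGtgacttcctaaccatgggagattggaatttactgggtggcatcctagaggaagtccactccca
The Gja1 window held an AP-1 match overlapping an E-box, a match that 7.81% of 32851 such windows hold. The Gjd2 window was 75.0% G and C and held a GC box, as 35.7% of windows do. The Gja10 window, inside the annotated gene, held a TATA box on the opposite strand, as 13.6% of windows do. All 3 held an E-box, as 72.3% do. The letters ATCGAT of a Onecut site, searched because Onecut factors mark horizontal cells, were in 0.925% of windows and in none of the 8. These matches describe letters only.

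Gja10 encodes a connexin (Cx57) that couples the dendrites of horizontal cells, the interneurons that average light signals across the outer retina. Its gene lies at chr4:32596960-32602760 on GRCm38. In horizontal nuclei its level was 31.7, 29.4 and 40.3 CPM after saline and 31.9, 30.6 and 21.0 CPM after IL-27, with a mean of 30.8 ± 6.17 (SD, n = 6). The highest and lowest libraries were a saline and an IL-27 library, and the groups overlapped. Of its 181 UMIs, 159 (87.8%) came from the 494 horizontal nuclei, and the next type, ganglion nuclei, held 11 UMIs at 0.562 ± 0.525 CPM.

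A Gja10 UMI was seen in 25.3% of horizontal nuclei (95% exact binomial interval 21.5 to 29.4%, counting error only) and in 0.0397% of amacrine nuclei, at median depths of 9942 and 5555 UMIs. With nuclei of at least 1000 UMIs thinned to 1000 and the others left out, the share in horizontal nuclei was 3.44%, and no amacrine nucleus held a UMI. Horizontal nuclei were compared with all amacrine nuclei of the same library, 2 lateral interneuron classes. Gja10 had 155 UMIs in the horizontal and 3 in the amacrine sums, a ratio of summed CPM of 742 (95% exact interval 249 to 3636, counting error only), and was higher in horizontal nuclei in 6 of 6 libraries. It passed the filter on low counts through horizontal nuclei alone, so it is described without a test.

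The other channel genes were lower in horizontal than in amacrine nuclei. Tests between types had the library as a block in edgeR's quasi-likelihood test, and here 51.9% of all genes tested were called, so a call by itself was common. Panx1 had 3 UMIs in horizontal nuclei, with levels of 0.961, 0 and 0 CPM for saline and 0, 0 and 3.81 CPM for IL-27, against 7.60 ± 0.715 CPM in amacrine nuclei. With 539 UMIs in amacrine nuclei the ratio of amacrine to horizontal summed CPM was 12.5 (95% exact interval 4.26 to 60.9, counting error only), and IL-27 10 held 2 of the 3 horizontal UMIs. No test is given at that count. On the log2 scale Gjd2 differed by -3.24 ± 0.28 (SE), Panx2 by -1.73 ± 0.38 and Gjc1 by -0.71 ± 0.19, each lower in horizontal nuclei in 6 of 6 libraries and past the test (edgeR adjusted p = 1.861e-14, 0.0001356 and 0.001122).

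Gjd2 encodes the main neuronal connexin (Cx36), which couples AII amacrine cells to each other and to ON cone bipolar cells, and also photoreceptors. It lies at chr2:114009601-114013619 and overlaps the start of A530058N18Rik on the opposite strand by 18 bases. In AII-like amacrine nuclei the level was 176, 198 and 203 CPM after saline and 202, 183 and 219 CPM after IL-27 (197 ± 15.2, SD, n = 6). No library of any other type reached the lowest of these values. ON cone bipolar nuclei, the partners of AII cells, came next with 61.7, 62.3 and 68.6 CPM after saline and 43.8, 58.3 and 77.1 CPM after IL-27 (62.0 ± 11.1). They overlapped with the unassigned bipolar cluster at 44.8 ± 11.0 CPM, which in turn overlapped with rods.

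Both sides of the rod pathway were compared within libraries. Between AII-like and the other glycinergic amacrine nuclei, Gjd2 was 16.3-fold higher in AII-like nuclei, a log2 difference of 4.03 ± 0.11 (SE, edgeR adjusted p = 2.893e-22, 6 of 6 libraries), where 41.2% of genes were called. Gjc1 was also higher in AII-like nuclei, by 1.18 ± 0.19 (edgeR adjusted p = 5.332e-06), at 20.5 ± 4.37 against 9.38 ± 3.46 CPM. Panx2 differed by -0.50 ± 0.26 and was not called (edgeR adjusted p = 0.1394). Between ON cone bipolar and rod bipolar nuclei, which contact AII cells by chemical synapses, Gjd2 was 3.26 ± 0.13 higher in ON cone bipolar nuclei (edgeR adjusted p = 8.794e-26, 6 of 6 libraries), where 43.6% of genes were called. Rod bipolar nuclei held 6.03 ± 1.07 CPM, close to Muller nuclei at 6.74 ± 1.955. Panx1 had the opposite order and was -1.24 ± 0.32 in ON cone against rod bipolar nuclei (edgeR adjusted p = 0.001061), lower in 4 of 6 libraries and higher in saline 1 and IL-27 10.

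A Gjd2 UMI was seen in 59.8% of AII-like nuclei, 22.3% of ON cone bipolar nuclei and 4.10% of rod nuclei. Microglia, which should lack a neuronal connexin, showed 3.40% at a median depth of 2098 UMIs, against 5088 for AII-like nuclei and 1266 for rods. At 1000 UMIs per nucleus the shares were 17.7, 6.08, 2.75 and 1.37% for AII-like, ON cone bipolar, rod and microglial nuclei. Nuclei under 1000 UMIs were left out of these shares, 4221 of 15528 rods and 94 of 1557 microglia. The level in microglia was 14.7 ± 6.76 CPM, while horizontal nuclei held 2.64 ± 1.67 CPM, so no single level was taken as background for all types. Glycinergic amacrine nuclei, at 12.2 ± 3.03 CPM, lay between these levels.

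**Figure D2:**
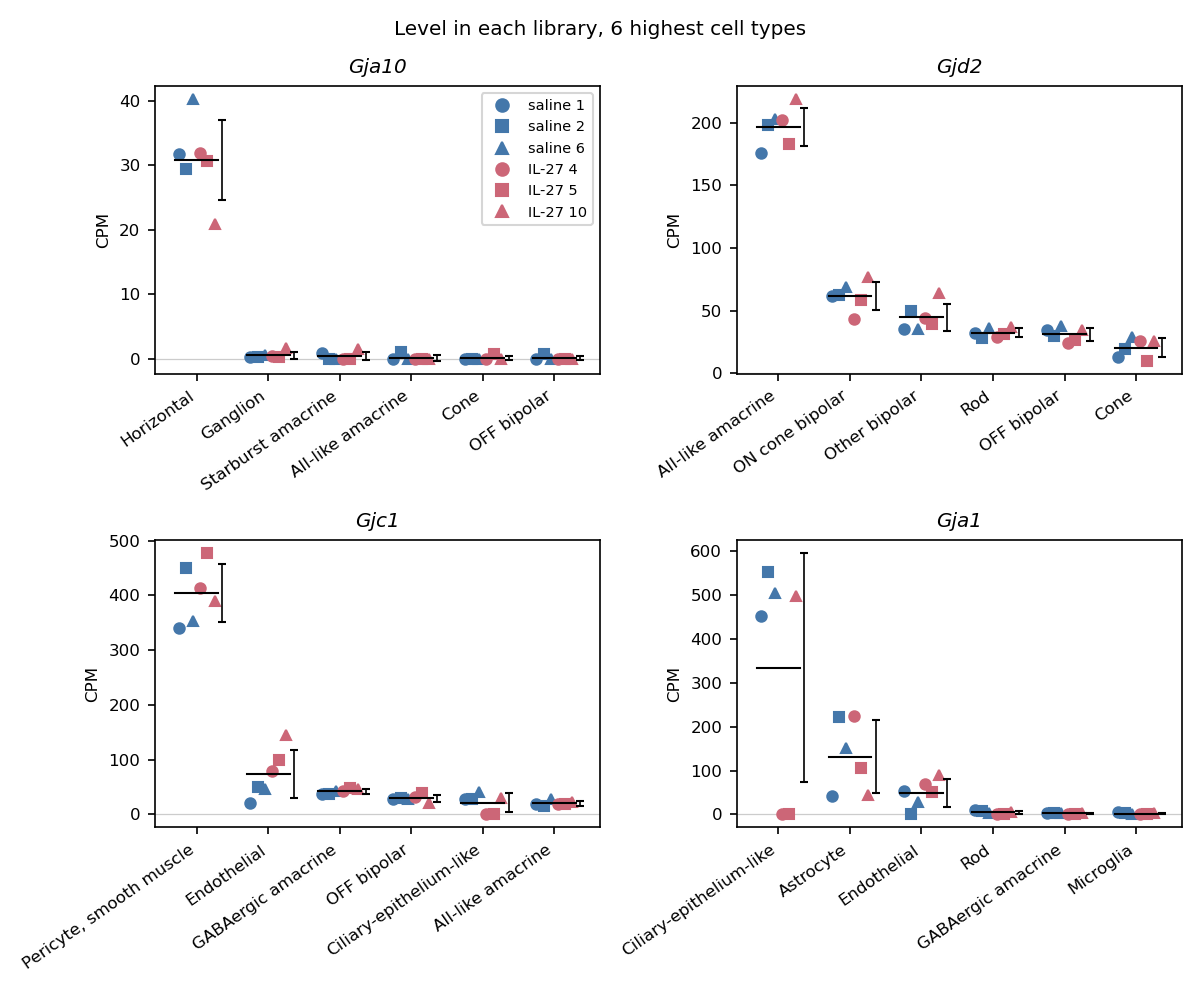
Level (CPM, linear axis) of Gja10, Gjd2, Gjc1 and Gja1 in each of 6 libraries for the 6 types with the highest mean, with saline in blue and IL-27 in red. Black lines are means of 6 libraries and bars beside them 1 SD, and nuclei of outlying totals are left out, which puts Gja1 at 0 in ciliary-epithelium-like nuclei of IL-27 4 and 5 (all retained nuclei of IL-27 5 gave 3 UMIs).

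Photoreceptors also couple through Gjd2, with cones and rods joined at their terminals. Rod nuclei held 32.2, 28.4 and 36.5 CPM after saline and 29.2, 31.4 and 36.8 CPM after IL-27, and cone nuclei 13.1, 19.8 and 28.8 CPM and 25.8, 10.3 and 26.1 CPM. Cones were lower in 6 of 6 libraries, by 0.43 ± 0.14 (SE) on the log2 scale (edgeR adjusted p = 0.0108), where 55.3% of genes were called. The call was lost with DESeq2 (-0.47), in the IL-27 libraries alone (-0.41), without IL-27 replicate 5 (-0.32) and without saline replicate 1 (-0.32). The cone values overlapped with those of microglia, so cones are not separated from that level. Within rods, a cluster of 859 nuclei with a median of 687 UMIs held 62.5 ± 16.4 CPM of Gjd2, a depth at which few UMIs are counted per nucleus.

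Inside the bipolar class, Gjd2 was uneven. The ON cone cluster led by Unc13c and Grin3a held 98.4, 100 and 83.2 CPM after saline and 72.6, 80.7 and 102 CPM after IL-27 (89.5 ± 12.3), and the cluster led by Sox6 and Hs3st4 66.0 ± 13.02. The ON cone cluster led by Adarb2 held 24.7 ± 5.43 CPM, below every library of the Unc13c cluster. Among OFF bipolar clusters, the one led by Neto1 and Cdh8 held 49.4 ± 12.1 CPM and those led by Grik1 and by Fat4 held 21.8 ± 5.35 and 26.5 ± 5.50 CPM.

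Gjc1 encodes a connexin (Cx45) of vascular mural cells and of some bipolar and amacrine cells, and pairs with Gjd2 protein at junctions between AII and ON cone bipolar cells. It lies at chr11:102799579-102819700. In pericyte and smooth muscle nuclei, which wrap the vessels and set their diameter, its level was 341, 449 and 353 CPM after saline and 414, 478 and 391 CPM after IL-27 (404 ± 53.6, SD, n = 6). A UMI was seen in 60.9% of the 115 nuclei, against 0.642% of microglia at a similar median depth of 2412 and 2098 UMIs. Endothelial nuclei, which line the vessels, held 21.5, 50.9 and 46.7 CPM and 80.1, 100 and 145 CPM. These endothelial values rest on 45 UMIs, and the gene did not pass the filter on low counts for a test between treatments. The ratio of pericyte and smooth muscle to endothelial summed CPM was 5.46 (95% exact interval 3.83 to 7.89, counting error only), with endothelial nuclei lower in 6 of 6 libraries. Between these types 45.7% of genes were called, and Gjc1 passed the filter through pericytes and smooth muscle alone, so its difference is a description.

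Among neurons, GABAergic amacrine nuclei held the largest share of Gjc1 UMIs, 49.8%, at 37.3, 36.5 and 42.2 CPM after saline and 43.5, 47.3 and 45.9 CPM after IL-27. The level was carried by a few clusters. The cluster led by Olfm3 and Tshr held 113, 114 and 136 CPM and 149, 148 and 147 CPM, a mean of 135 ± 16.8, and the cluster led by Cartpt and Kit 105, 84.3 and 94.5 CPM and 125, 142 and 168 CPM, a mean of 120 ± 31.4. No test between treatments was made at this level. Clusters led by Cpne4 and by Gpc5 and Vip held 48.8 ± 16.6 and 47.4 ± 11.3 CPM, and the cluster led by Htr2c 12.9 ± 3.90. In bipolar nuclei, the OFF cluster led by Neto1 and Cdh8 held 87.7 ± 14.6 CPM, while the OFF cluster led by Grik1 held 1.20 ± 0.993.

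ON cone bipolar nuclei held 5.84 ± 1.64 CPM of Gjc1 and rod bipolar nuclei 0.844 ± 0.544, close to background. Between these types Gjc1 did not pass the filter on low counts. It had 94 UMIs in ON cone bipolar and 11 in rod bipolar nuclei, and no test is given at that count.

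**Figure D3:**
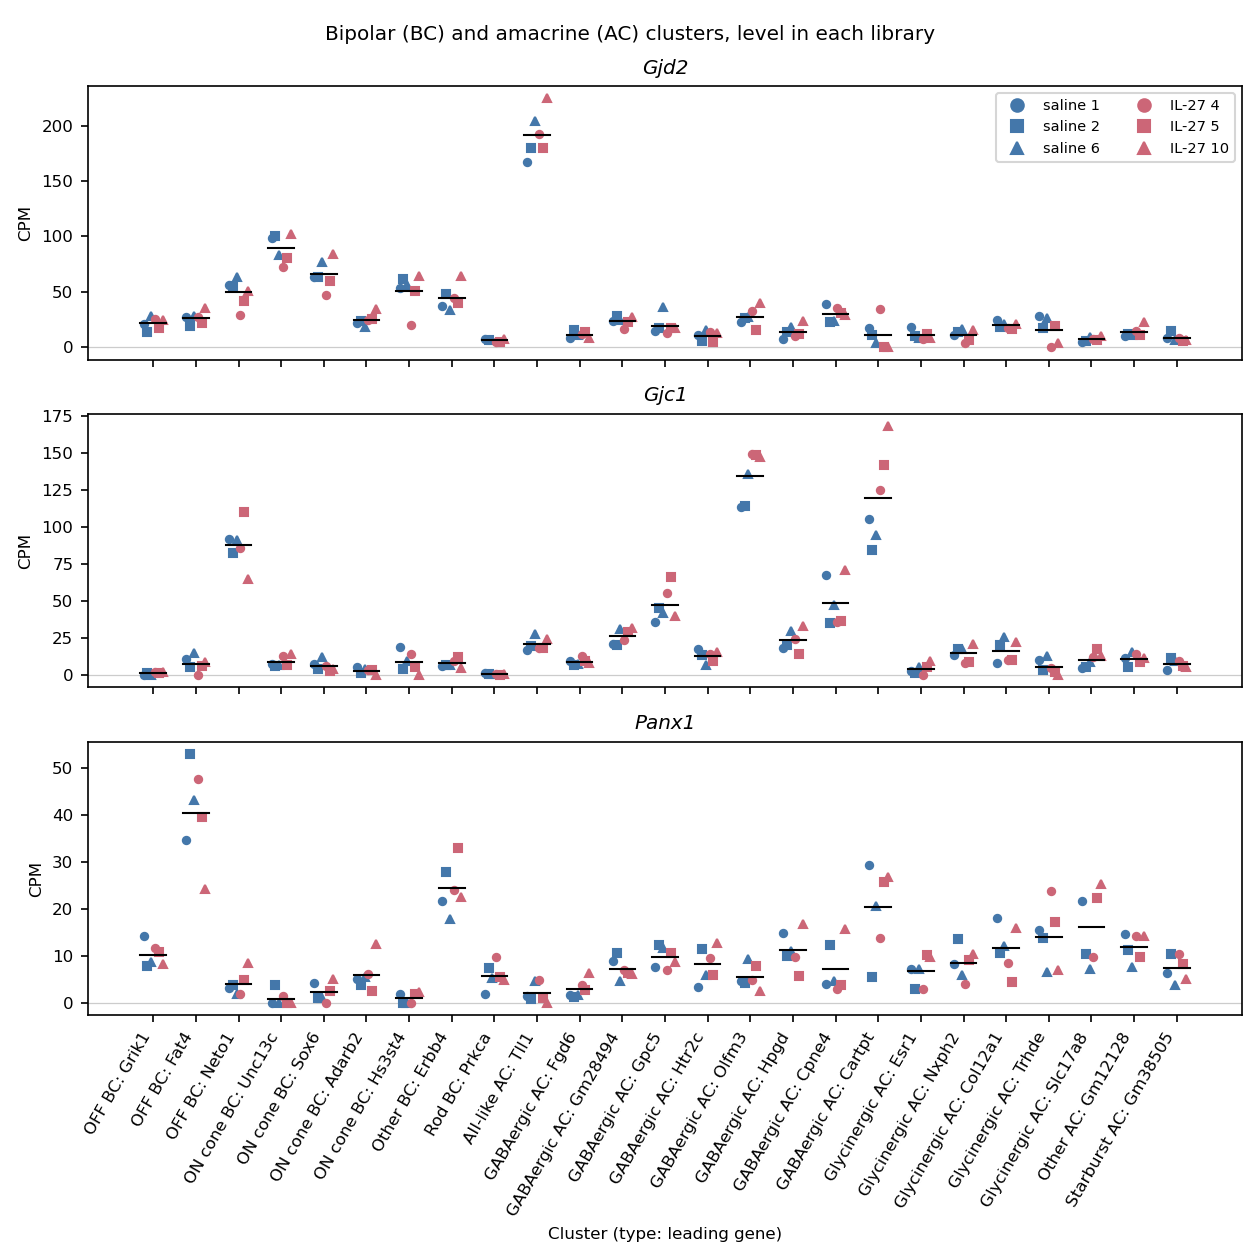
Level (CPM) of Gjd2, Gjc1 and Panx1 in each library over the clusters of bipolar (BC) and amacrine (AC) nuclei, each named by its type and leading gene, with saline in blue, IL-27 in red and the mean as a black line. Gjd2 peaks in the AII-like cluster, Gjc1 in the OFF Neto1 and GABAergic Olfm3 and Cartpt clusters, and Panx1 in the OFF Fat4 and the Erbb4 clusters.

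Gja1 encodes the widespread glial and epithelial connexin (Cx43), which couples astrocytes and joins the layers of the ciliary epithelium. It lies at chr10:56377330-56402513. Ciliary-epithelium-like nuclei held 70.2% of its 1914 UMIs, astrocytes 8.41%, rods 5.59% and Muller nuclei 1.62%. Over all retained ciliary-epithelium-like nuclei, its level was 471, 537 and 519 CPM after saline and 484 CPM in IL-27 10, and the 95% exact Poisson limits of these 4 values spanned 417 to 592 CPM. In IL-27 4 no Gja1 UMI was seen in 12 nuclei, where a limit of 3 UMIs stands for 85.8 CPM, and in IL-27 5 there were 3 UMIs in 6 nuclei, or 105 CPM (95% exact Poisson interval 21.7 to 307). None of these 3 UMIs lay in the nuclei of IL-27 5 left once those of outlying totals were taken out. These intervals cover counting error only. The 4 libraries with over 100 such nuclei, 3 saline and 1 IL-27, therefore lay close together, and the other 2 had few nuclei and lower values.

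Other genes did not all follow Gja1 in these few nuclei. Fbln1, a matrix gene of the cluster, was at 286 and 490 CPM in IL-27 4 and 5 against 1371 to 1506 CPM in the other 4, and Zic1, a ciliary marker, at 114 and 210 CPM against 392 to 510 CPM. The Zic1 interval of IL-27 5 (95% exact Poisson, 77.1 to 457 CPM) overlapped with those of saline 2, saline 6 and IL-27 10. It lay below that of saline 1 (464 to 558 CPM). Abca8a, a leading gene of a Muller cluster, was at 401 CPM in IL-27 4, above the 135 to 196 CPM of the other 4. Its interval in IL-27 4 (95% exact Poisson, 219 to 672 CPM) overlapped with that of saline 1 (169 to 228 CPM). It did not overlap with those of saline 2, saline 6 and IL-27 10. Abca8a had no UMI in IL-27 5, where a limit of 3 UMIs stands for 105 CPM. Whether these 12 and 6 nuclei are the same cells as in the other libraries was not tested. No test between treatments was made in this type, because IL-27 5 fell under 10 nuclei.

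Summed over the whole library, Gja1 was at 12.9, 17.9 and 7.91 CPM after saline and 2.75, 1.20 and 7.89 CPM after IL-27. The share of ciliary-epithelium-like nuclei in those libraries was 2.51, 2.69 and 1.23% and 0.137, 0.0701 and 1.17%. In a whole-library sum, fewer nuclei of a type and less RNA per nucleus cannot be told apart. Of the IL-27 libraries, IL-27 10 had both the highest Gja1 and the most such nuclei.

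Outside the ciliary-epithelium-like, astrocyte, endothelial and pericyte nuclei, Gja1 was at 2.52, 3.24 and 1.43 CPM after saline and 0.862, 0.442 and 1.80 CPM after IL-27. Fbln1 in the same nuclei was at 7.10, 7.21 and 3.77 CPM and 1.01, 1.66 and 3.07 CPM. Gja1 here was lowest in IL-27 4 and 5, as was the share of ciliary-epithelium-like nuclei, and whether free RNA of those nuclei is part of the low Gja1 values elsewhere was not tested. Muller nuclei were among these low types, with 2.07, 2.70 and 0.302 CPM and 1.481, 0.532 and 1.38 CPM (1.41 ± 0.907), below rods at 4.53 ± 3.53. A Gja1 UMI was seen in 0.650% of Muller nuclei, 0.625% of rod nuclei and 0.385% of microglia, against 59.9% of ciliary-epithelium-like nuclei. The Muller value is therefore not distinguished from that of cells expected to lack the gene.

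**Figure D4:**
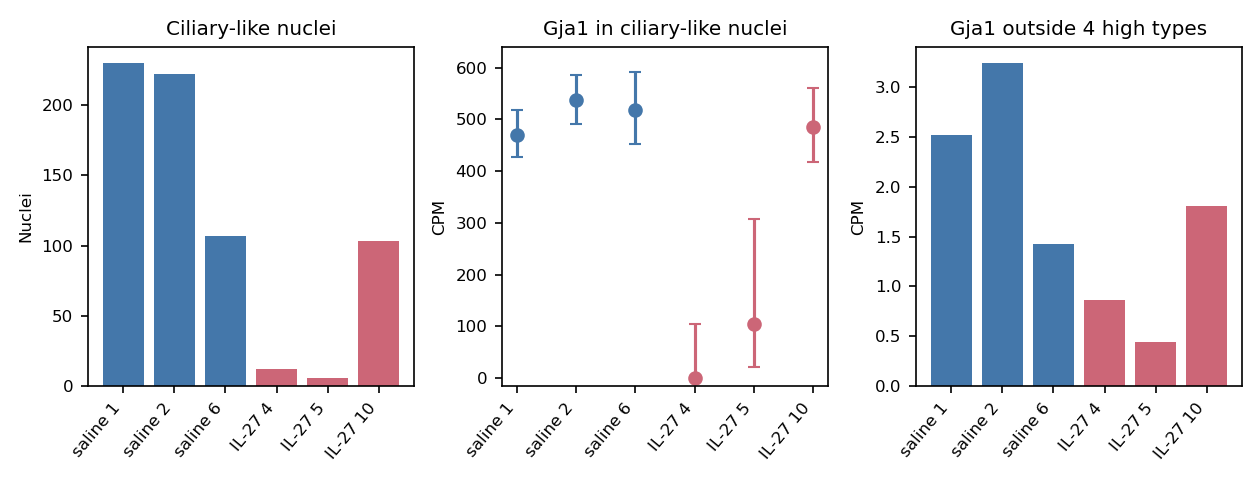
Per library, number of ciliary-epithelium-like nuclei (left), Gja1 level in them as CPM with 95% exact Poisson intervals (middle), and Gja1 level in all types other than ciliary-epithelium-like, astrocyte, endothelial and pericyte (right). IL-27 4 and 5 have 12 and 6 such nuclei and the lowest Gja1 in both other panels, and IL-27 10 has 103 nuclei and 484 CPM.

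Astrocytes enter the retina along the optic nerve and lie on its inner surface. Their Gja1 level was 42.4, 223 and 151 CPM after saline and 225, 106 and 43.7 CPM after IL-27, from 158 UMIs, and the groups overlapped throughout. Astrocytes lay above Muller nuclei, which had 31 UMIs, in 6 of 6 libraries, with a ratio of summed CPM of 97.2 (95% exact interval 65.8 to 148, counting error only). Between these types 30.7% of genes were called, and Gja1 passed the filter through astrocytes alone, so its difference is a description. On the log2 scale Gjc1 differed between them by 0.41 ± 0.50 (SE, edgeR adjusted p = 0.6059).

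Ciliary-epithelium-like and Muller nuclei were compared in the 5 libraries with at least 10 nuclei of both, where 40.6% of genes were called. Gjc1 was higher in the ciliary-epithelium-like nuclei by 1.73 ± 0.28 (SE, edgeR adjusted p = 3.76e-06, 4 of 5 libraries), but not past the threshold in the IL-27 libraries alone (2.02). Gja1 did not pass the filter because IL-27 4 had no UMI. It is therefore described without a test. Over 6 libraries Gja1 had 1149 UMIs in ciliary-epithelium-like and 31 in Muller nuclei. It was higher in the ciliary-epithelium-like nuclei in 4 of the 5 libraries compared. Gjd2 differed by 0.29 ± 0.39 and was not called (edgeR adjusted p = 0.5915).

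Gjb2 and Gjb6 encode epithelial and astrocytic connexins (Cx26 and Cx30) and are neighbours on chromosome 14, at chr14:57098600-57104702 and chr14:57123303-57133611. Each had 10 UMIs. Ciliary-epithelium-like nuclei gave 3 of the Gjb2 UMIs and 7 of the Gjb6 UMIs, and IL-27 10 alone gave 7 and 9 of them. Astrocytes, a known site of Gjb6, showed none in 294 nuclei, which allows a share of up to 1.02% of nuclei with a UMI when the limit is set at 3 nuclei. Neither gene was tested between treatments at this depth.

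Gja4 and Gja5 encode vascular connexins (Cx37 and Cx40) that couple the endothelium of arterioles. Gja4 had 23 UMIs in pericyte and smooth muscle nuclei, at 170, 131 and 0 CPM after saline and 27.6, 70.8 and 107 CPM after IL-27, and 12 UMIs in endothelial nuclei, at 20.9 ± 28.6 CPM. A UMI was seen in 16.5% of pericyte and smooth muscle and 5.35% of endothelial nuclei, and in 0.126% of GABAergic amacrine nuclei. Gja5 was highest in endothelial nuclei, with 0, 0 and 28.0 CPM and 0, 21.5 and 11.2 CPM from 7 UMIs. Most of its 153 UMIs came from GABAergic amacrine nuclei (43) and Muller nuclei (35), where 0.472 and 0.734% of nuclei had 1. Its gene, at chr3:96904693-97077416, overlaps Gpr89 on the opposite strand, and whether counting used the strand is not given in the sources used here.

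Panx1 encodes the better known pannexin, an ATP-release channel opened by caspase cleavage and depolarization. Its gene lies at chr9:15002128-15045478. The highest type was the unassigned bipolar cluster led by Erbb4, with 23.9, 29.5 and 20.2 CPM after saline and 24.1, 33.6 and 22.5 CPM after IL-27 (25.6 ± 4.97). That cluster had a median of 6208.5 UMIs per nucleus and was second to rod bipolar nuclei for Prkca, at 2793 CPM. With 16% doublets removed, saline 6 kept 122 of its 243 nuclei there. Whether the cluster mixes bipolar types or holds doublets was not tested. OFF bipolar nuclei followed at 16.5 ± 2.84 CPM, where the cluster led by Fat4 and Hs3st2 held 34.7, 52.9 and 43.2 CPM and 47.6, 39.7 and 24.2 CPM (40.4 ± 10.1) and the one led by Neto1 1.83 to 8.41. Ganglion nuclei held 10.7 ± 1.26 CPM and Muller nuclei 4.03 ± 0.602. Microglia held 9.68 ± 4.76 CPM, so levels near 10 CPM in several neuronal types do not differ from it beyond the spread of libraries.

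Panx2 encodes a neuronal pannexin found largely on intracellular membranes. Its gene, at chr15:89059734-89073567, overlaps 1810021B22Rik (637 UMIs) on the opposite strand by 2372 bases, with the same doubt about strand as for Gja5. Ganglion nuclei, the output neurons, were highest at 12.9, 18.9 and 15.9 CPM after saline and 17.2, 14.7 and 14.1 CPM after IL-27 (15.6 ± 2.18). The unassigned amacrine cluster (11.7 ± 6.40), GABAergic (10.5 ± 1.42) and glycinergic (10.3 ± 3.13) amacrine nuclei followed, and all of them overlapped with ganglion nuclei. Muller nuclei held 2.28 ± 0.951 CPM and microglia 1.61 ± 1.40. In the 8 genes with over 50 UMIs, the highest type stayed the same after thinning to 1000 UMIs, without nuclei below that depth. Types were then ranked by the share of nuclei with a UMI.

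IL-27 was then compared with saline in every type with at least 10 nuclei in each library, 18 of the 19. The 10 genes gave 36 tests, from 6 genes in 14 types, since Gja4, Gja5, Gjb2 and Gjb6 passed the filter in none. Gja5 passed only with the amacrine types summed, at 0.67 ± 0.50 (SE, edgeR adjusted p = 0.9999). None was called by edgeR, 2 had an unadjusted p under 0.05, 17 differences were positive and 19 negative, and their median was -0.021. With DESeq2 none was called either. Calls were rare over all genes too. The percentages called were 0.0218% in AII-like amacrine, 0.00657% in GABAergic amacrine, 0.0369% in Muller and 0.00754% in rod nuclei, and 0% in the other 14 types, so 0 of 36 is near the background. The standard errors of the 36 differences ran from 0.10 to 0.54 on the log2 scale. Differences larger than their standard error also went uncalled, such as Gjc1 in GABAergic amacrine nuclei at 0.25 ± 0.10. Outside the 36, Gja1 with the bipolar types summed was at -2.01 ± 0.50 and was not called either. Changes of that size can therefore be missed here.

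For each gene in a type where it was high, the 95% interval of the difference was taken from its SE and the t distribution at edgeR's total degrees of freedom. Gja10 in horizontal nuclei differed by -0.22 (95% interval -0.74 to 0.30), Gjd2 in AII-like nuclei by 0.074 (-0.16 to 0.31), and Gjd2 in ON cone bipolar nuclei by -0.083 (-0.41 to 0.24). Gjc1 in pericytes and smooth muscle differed by 0.19 (-0.46 to 0.84), Gja1 in astrocytes by -0.080 (-1.04 to 0.88), and Panx1 in the Erbb4 bipolar cluster by 0.23 (-0.32 to 0.78). Panx2 in ganglion nuclei differed by 0.0045 (-0.40 to 0.41). The AII-like interval was the narrowest of these, and the astrocyte interval the widest.

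Among the 36 tests in single types, the 2 with the smallest unadjusted p were both for Gjc1. In GABAergic amacrine nuclei the difference was 0.25 ± 0.10 (SE, edgeR adjusted p = 1.0). In Muller nuclei the levels were 8.98, 8.11 and 11.5 CPM after saline and 7.995, 5.58 and 5.19 CPM after IL-27, a difference of -0.59 ± 0.26 (edgeR adjusted p = 0.9542). Gjd2 in Muller nuclei stood at -0.57 ± 0.28 (edgeR adjusted p = 0.9611), from a level below that of microglia. None of these passed adjustment over the genes of its type.

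Gja1 had the largest negative values, in types where it is low. In rods the difference was -1.13 ± 0.54 (edgeR adjusted p = 0.9999), at the levels 8.90, 7.95 and 2.43 CPM after saline and 1.15, 0.827 and 5.94 CPM after IL-27, so that IL-27 10 lay above saline 6. Without IL-27 replicate 10 the rod difference was -2.64, and with another library left out it ran from -1.48 to -0.75, never called. With the bipolar types summed, levels were 1.61, 2.99 and 1.504 CPM and 0.157, 0.489 and 0.774 CPM, a difference of -2.01 ± 0.50 (edgeR unadjusted p = 0.001887, adjusted p = 1.0), where 0% of genes were called. With no filter on low counts it was -2.02 and passed (edgeR adjusted p = 0.02063). With the amacrine types summed it was -1.16 ± 0.43 (edgeR unadjusted p = 0.02024, adjusted p = 0.9999), where 0.00592% were called. The share of ciliary-epithelium-like nuclei in each library, given above, was lowest in IL-27 4 and 5, and its part in them was not tested.

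With the ciliary-epithelium-like nuclei counted as Muller nuclei, Gja1 stood at -2.09 ± 0.89 (SE, edgeR adjusted p = 0.5372) and Gjc1 at -0.81 ± 0.22 (edgeR adjusted p = 0.2939), where 0.0286% of genes were called. Without IL-27 replicate 10 the Gja1 difference became -6.17 ± 0.49 (edgeR adjusted p = 0.0001741), and with no filter on low counts it was -2.11 (adjusted p = 0.04319). With those nuclei apart, as in the comparisons above, Gja1 in Muller nuclei had too few counts for a test.

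**Figure D5:**
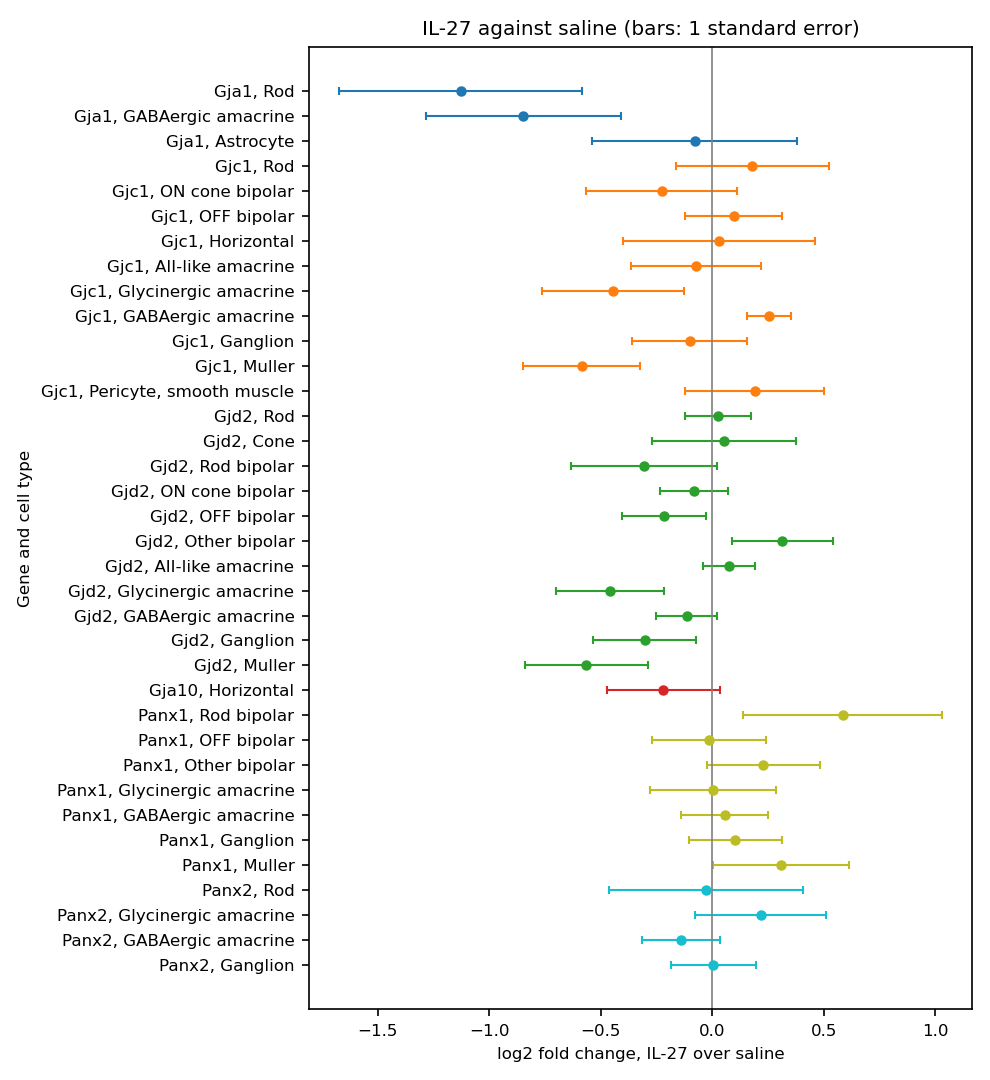
Difference of IL-27 over saline (log2 fold change, points) with 1 standard error (bars) for the 36 pairs of gene and type that passed the filter on low counts, coloured by gene. Points lie between -1.13 for Gja1 in rods and 0.58 for Panx1 in rod bipolar nuclei, and none passed the test.

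Other genes of the same systems were counted from 3 lists. Of the 13 other connexins and pannexins none passed the filter on low counts in any type. The 17 junction scaffolds and regulators include Tjp1, which anchors connexins to the membrane skeleton, and the kinases that phosphorylate them. They gave 229 tests with none called by edgeR, 10 with an unadjusted p under 0.05 and a median of 0.030. Examples of their highest levels are Prkca in rod bipolar nuclei (15752 ± 500.5 CPM), Camk2d in horizontal nuclei (2149 ± 186 CPM) and Tjp1 in endothelial nuclei (1668 ± 220.4 CPM). Of the 19 genes of ATP release and purinergic signalling, 17 were tested, with 116 tests, none called, 3 with an unadjusted p under 0.05 and a median of 0.043. Over all genes and the 18 types, 3.73% of tests had an unadjusted p under 0.05 and 0.00517% were called, so both lists lay near the background. P2ry14 and P2ry12, receptors for extracellular nucleotides, were highest in starburst amacrine nuclei (1867 ± 302 and 827 ± 142 CPM). P2ry12 is also a naming marker of microglia, which came second for it at 296 CPM with libraries pooled. Whether reads of overlapping genes add to these 2 values was not tested. Entpd1, which breaks ATP down outside cells, was highest in endothelial nuclei (432 ± 77.2 CPM).

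For each of the 8 genes with at least 50 UMIs, genes with the most similar profile over 19 types were found as the highest Pearson r of log2(CPM + 1) among 15752 genes. The types share 6 libraries, and a profile with a single high type gives a high r by itself. Gja10 was most like Gm28182 (0.99), Gm7125 (0.99) and Oxgr1 (0.99), all highest in horizontal nuclei. Gja1 was most like Slc13a4 (0.97), Fam107a (0.94) and Eps8l2 (0.93). Gjd2 was most like Actc1 (0.82), whose gene lies 33663 bases from it, the overlapping A530058N18Rik (0.80) and BC046251 (0.78). Gjc1 was most like Cald1 (0.85), Tspan6 (0.85) and C1qtnf7 (0.83), all highest in pericytes and smooth muscle. Gja4 was most like Cd248 (0.99), Col3a1 (0.99), which is also a naming marker, and Prl2c3 (0.98). Gja5 was most like Rflnb (0.92), Usp43 (0.92) and Prnd (0.92). Panx1 was most like Tafa2 (0.78), Rnf180 (0.77) and 4732471J01Rik (0.73), and Panx2 was most like Trim66 (0.88), Lrrc7 (0.88) and Shisa7 (0.88).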

How the data were processed

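Nuclei of 6 libraries were counted. The authors made whole UMI counts per gene and barcode with Cell Ranger (version 9.0.1 in the labels, 8.0.1 in the file headers), and the deposited counts were not normalized. The labels also name Seurat 5.2.1, which the authors used after counting, and the genome build is not given in the sources used here. Coordinates are from a GRCm38 annotation, which held 99.8% of the gene IDs.

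Filters required over 500 UMIs, 200 genes or more and a mitochondrial share under 5%. Doublets were taken out by Scrublet score in scanpy 1.11.5 at an expected 8%, lowered by the homotypic share. Louvain clustering (igraph 0.11.9; 2000 variable genes, 25 components, 20 neighbours, resolution 0.25) left out all connexin and pannexin genes. Clusters were named from marker lists with at least 3 markers, and 153 nuclei of mixed markers were left out.

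Counts were summed per library and type without nuclei whose log2 total was over 2 median absolute deviations away from that type's median. CPM was computed from these sums. Genes passing filterByExpr at 10 counts were tested with edgeR 4.0.16 (quasi-likelihood, TMM) under R 4.3.3, and p-values were adjusted per comparison by Benjamini-Hochberg, with a threshold of 0.05. Pairs of types had the library as a block. Where a gene passed the filter through the higher type alone, or had 3 counts or fewer in a type, the ratio of summed CPM with a conditional exact binomial interval replaced the test, a choice made after seeing the data. The fits were tested on simulated data, and no result of those runs is given here.

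Alternatives were DESeq2 1.42.0, its size factors, no filter or a stricter filter (30 counts), all nuclei summed, 16% doublets, under 1% mitochondrial counts, a resolution of 0.5, libraries left out and thinning to 1000 UMIs. Python 3.11.15 was used.

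All 10 genes were named, with up to 3 examples of highest level per other list and the 3 most similar genes. Members, lists and comparisons were chosen with earlier results of these data known. Astrocytes and vascular types rest on few nuclei.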

Additional observations from a re-analysis of the deposited data

How the results depend on the processing

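No paired analysis was possible because the saline and IL-27 libraries share no replicate number. Of the 36 differences between treatments, the alternatives gave 478 values, none called, of which 50 had the opposite sign, at most 0.62 in size on the log2 scale. In the wider set with summed bipolar types, the number of called genes went from 0 to 1 with no filter on low counts (Gja1 in bipolar nuclei, -2.02). In Muller nuclei with the ciliary-epithelium-like nuclei counted in, it was 1 with no filter and 0 to 1 when each library was left out (1 without IL-27 replicate 10). Among signs that turned, Gja1 in astrocytes was 0.023 under the 1% mitochondrial limit and -0.91 to 0.37 with a library left out, Gjd2 in ON cone bipolar nuclei ran from -0.28 to 0.078 and Panx2 in GABAergic amacrine nuclei from -0.22 to 0.016 with a library left out. With 16% doublets removed, 7 of 8 genes kept their highest type (Gja5 moved from endothelial nuclei to astrocytes), Gjc1 in pericytes and smooth muscle was 291 CPM and Panx1 in the Erbb4 bipolar cluster was 36.4 CPM. This setting left 26 of 105 pericyte and smooth muscle nuclei and none in 2 IL-27 libraries, so the Gjc1 and Gja4 values there are means over fewer libraries. In saline 2 it left 2 of 34 astrocytes and 2 of 26 endothelial nuclei, so these types were not compared between treatments under it. For Panx1 and Gja5 the cause was not tested. The genes chosen for the 7 pairs of types gave 8 calls, and 6 to 12 under the alternatives, and all of the 10 genes that passed the filter in those pairs gave 16 tests, of which 13 were called. Calls are common there, at 30.7 to 55.3% of all genes, and some of them (Gja10 in horizontal nuclei, Gja1 in astrocytes, Gjc1 in pericytes) passed the filter through the higher type alone, so these counts are a description. Depth limits Gja4, Gja5, Gjb2 and Gjb6, with at most 153 UMIs each.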
